A study of Mus musculus with 24 samples.

Results

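The genes of the endoplasmic reticulum (ER) stress response and of the amino acid response run by the factor ATF4 were followed in cultured mouse cortical neurons. They were a fixed set of 39 genes. A probe set counted for a gene only if the platform annotation gave it that gene and no other, and 94 probe sets did so for the 39 genes. All 39 were among the 18194 genes measured, and 29 of them had more than 1 probe set, which were averaged. The set holds 18 genes of the ATF4 branch, 17 genes of the ER chaperone branch and 4 genes for the sensors and the factors they switch on. The RNA came from primary cortical neurons of E18 mice kept in culture for 1 week, with no strain or genotype named in the labels, and was hybridised to 24 Affymetrix arrays. Exposure lasted 2 h or 12 h, to DMSO as vehicle, to 1 µM IBET858, to 50 ng/ml BDNF or to both agents together, and each of the 8 groups so formed had 3 arrays. IBET858 inhibits the BET proteins, readers of acetylated histones that help RNA polymerase II to elongate. BDNF is a neurotrophin that acts on neurons through the receptor TrkB. The labels do not say whether replicates were separate cultures, so each p-value measures the spread between these samples only. Every probe set had been centred on 0 in log2 units, and the values therefore compare samples without giving the abundance of a transcript. The labelled cell type could therefore not be checked against the level of neuronal markers, and in RNA from whole cultures fewer cells of a type and less RNA per cell cannot be told apart.

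Unfolded proteins in the ER are sensed by the kinases PERK (Eif2ak3) and IRE1 (Ern1) and by the membrane-held factor ATF6. PERK, together with kinases that sense amino acid shortage and other stresses, phosphorylates the translation factor eIF2, which slows protein synthesis in general and lets ATF4 be made. ATF4 then acts on genes for amino acid synthesis and import, tRNA charging and the factor CHOP (Ddit3). IRE1 splices the Xbp1 message, and XBP1 and ATF6 act on chaperones, folding enzymes and the machinery that sends misfolded proteins to the proteasome. In neurons ATF4 and its targets also respond to changes in activity and trophic support.

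The branches are known to be read through different DNA elements, which is why their promoters are shown beside the expression data. The RefSeq table of assembly GRCm38.p6, which gives 250 bases before and 50 bases after each start, held 36 of the 39 members. Both strands were searched. The core of the C/EBP-ATF response element, TGATGNAA, lay in the promoters of 4 of 18 ATF4-branch members, Asns, Atf3, Chac1 and Trib3, and in 1 of 15 matched members of the ER chaperone branch, Herpud1, against 4.511% of all 27025 genes in the table. The ER stress response element, CCAAT followed after 9 bases by CCACG, lay in 8 of 15 ER members and in 0 of 18 ATF4 members, against 0.137% of all genes. Herpud1 also held the second form of that element, ATTGG followed after 1 base by CCACG, which 0.044% of genes hold. The unfolded protein response element TGACGTGG was in none of these members (0.714% of genes), and the cyclic AMP response element TGACGTCA, which shares its first 6 letters with it, was in Ppp1r15a (2.031% of genes). A match is a description of these letters, and no match says only that they are absent from this window. The matches are written below in the direction of the motif, with its fixed letters in capitals and the free bases in lower case. For each motif the capitals are the same in every gene because the search required them, and only the free bases could differ.
Asns: TGATGaAA
Trib3: TGATGtAA
Atf3, Chac1 and Herpud1: TGATGcAA
Hspa5: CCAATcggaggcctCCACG
Creld2: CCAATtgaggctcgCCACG
Calr: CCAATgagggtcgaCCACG
Canx: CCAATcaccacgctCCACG
Dnajc3: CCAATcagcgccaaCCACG
Pdia6: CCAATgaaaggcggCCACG
Syvn1: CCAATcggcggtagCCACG
Hsp90b1, farther from the start: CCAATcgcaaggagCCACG
Hsp90b1, nearer to the start: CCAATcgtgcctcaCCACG
Herpud1, second form: ATTGGgCCACG

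A pair of promoters from each branch shows where these letters sit. Each is given 5′ to 3′ on the strand of its gene, with the whole match in capitals, and a position is counted from the annotated start as 0. In Asns the match began at -23, and in Trib3, on the opposite strand, at 14, past the start. The element of Hspa5 began at -65 and that of Creld2, on the opposite strand, at -126.
Asns, chr6:7693160-7693459, minus strand: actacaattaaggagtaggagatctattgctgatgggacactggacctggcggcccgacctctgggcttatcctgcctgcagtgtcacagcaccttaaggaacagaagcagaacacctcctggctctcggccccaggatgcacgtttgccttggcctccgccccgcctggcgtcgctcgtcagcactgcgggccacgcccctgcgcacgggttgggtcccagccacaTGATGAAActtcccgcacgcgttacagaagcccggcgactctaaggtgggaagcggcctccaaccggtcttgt
Trib3, chr2:152344011-152344310, minus strand: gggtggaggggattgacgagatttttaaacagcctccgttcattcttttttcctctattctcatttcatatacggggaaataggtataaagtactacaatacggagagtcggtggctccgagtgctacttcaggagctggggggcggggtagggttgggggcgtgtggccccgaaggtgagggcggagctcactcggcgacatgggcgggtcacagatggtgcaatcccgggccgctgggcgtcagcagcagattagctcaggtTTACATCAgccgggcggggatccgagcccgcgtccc
Hspa5, chr2:34771840-34772139, plus strand: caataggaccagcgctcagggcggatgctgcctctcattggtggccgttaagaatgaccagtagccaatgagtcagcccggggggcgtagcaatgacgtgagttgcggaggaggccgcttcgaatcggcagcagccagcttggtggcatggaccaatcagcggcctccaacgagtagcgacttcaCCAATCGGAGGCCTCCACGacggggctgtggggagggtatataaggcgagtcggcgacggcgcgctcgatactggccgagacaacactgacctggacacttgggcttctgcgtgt
Creld2, chr15:88819396-88819695, plus strand: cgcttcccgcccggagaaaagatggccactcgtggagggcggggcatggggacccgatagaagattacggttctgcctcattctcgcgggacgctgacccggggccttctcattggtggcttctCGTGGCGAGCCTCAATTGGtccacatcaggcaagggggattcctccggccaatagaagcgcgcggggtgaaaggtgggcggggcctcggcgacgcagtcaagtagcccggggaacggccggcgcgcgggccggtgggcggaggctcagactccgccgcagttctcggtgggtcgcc

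On 22 arrays the SD of all genes around their group means was 0.072 to 0.117. The first DMSO replicate at 2 h stood apart at 0.178, and the third IBET858 replicate at 12 h at 0.157. On that DMSO array the members were low: it was the lowest of its group for 29 of 39 members and for 38.7% of all genes. Against the mean of the other two DMSO arrays, 16 members were lower by over 0.5 and 0 were higher by over 0.5, where 2.83% and 2.78% of all genes were. Sdf2l1 lay 1.88 below the other two, Creld2 1.14, Trib3 1.12, Chac1 1.02 and Ppp1r15a 1.01. The plot of 2 h changes with and without this array therefore shows every member, and many values are also given both ways in the text. The array was also high for some cell type markers, with a mean of 0.628 over 6 astrocyte genes and 0.791 over 3 genes of dividing cells. The means of its whole group were 0.234 and 0.174, and its lowest arrays had -0.010 and -0.184. The array was also highest of its group for oligodendrocyte lineage (0.200) and vascular genes (-0.024), and lowest for neuronal (-0.248) and microglial genes (-0.013). At 12 h the first DMSO array had like values for astrocyte and dividing-cell genes, 0.530 and 0.551. It also had the lowest mean of its group for the ER chaperone branch (-0.273). Astrocyte markers differed between the 12 h groups: 3 of 6 were called lower with IBET858 and 2 of 6 with BDNF, with list means of -0.04 to 0.53 on DMSO arrays, -0.42 to -0.28 with IBET858 and -0.23 to -0.09 with BDNF. Of the 6 microglial markers 3 fell with IBET858 at 12 h (list means of -0.12 to -0.03 with DMSO and -0.37 to -0.20 with IBET858), and of the 6 neuronal markers 3 fell and 1 rose, where 25.8% of all genes fell and 22.9% rose. With BDNF at 12 h 3 neuronal markers rose and 3 fell, and 1 microglial marker fell, where 16.9% of all genes rose and 24.2% fell. The part of these cell types in the members' values was not tested.

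Members were called at an adjusted p under 0.05 from limma, fitted on all genes. With IBET858 alone, 18 of 39 members rose at 2 h and 1 fell (46.2% and 2.56%), where 5.64% of all genes rose and 9.27% fell. Without the DMSO array that stood apart it was 13 and 3, against 4.96% and 8.99%, and when the DMSO and IBET858 arrays of 2 h were fitted alone, 5 members were called higher. At 12 h 20 members rose and 5 fell (51.3% and 12.8%), against 22.9% and 25.8% of all genes. BDNF alone raised 18 members at 2 h and lowered 1, against 9.79% and 18.1% of all genes, and without that array 12 and 2, against 8.13% and 16.3%. With the groups of that comparison fitted alone 10 were called higher. At 12 h BDNF raised 26 of 39 (66.7%) and lowered 0, where 16.9% of all genes rose and 24.2% fell. Without the first DMSO array of 12 h, the members called higher at that time were 17 with IBET858 and 22 with BDNF. These were the lowest counts when each array was left out in turn. In each of these comparisons the share of members that rose was above that of all genes. All 4 were made against the same DMSO arrays of their time.

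Adding IBET858 to BDNF gave a mixed picture. At 2 h 17 members rose and 6 fell (43.6% and 15.4%), against 12.2% and 14.9% of all genes. At 12 h 9 rose and 12 fell (23.1% and 30.8%), shares near those of all genes, 21.1% and 25.6%. By branch, 3 of 18 ATF4-branch members rose and 9 fell (16.7% and 50.0%), with a median log2 change of -0.25, and 5 of 17 ER members rose and 3 fell (29.4% and 17.6%), with a median of 0.13, beside -0.01 over all genes. The shares of the ER chaperone branch lie near those of all genes, and the difference between the branches was not tested. Seen from the other side, BDNF added to IBET858 raised 13 members and lowered 3 at 2 h, against 6.44% and 14.7% of all genes. At 12 h it raised 13 and lowered 5, against 16.1% and 23.2%.

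**Figure D1:**
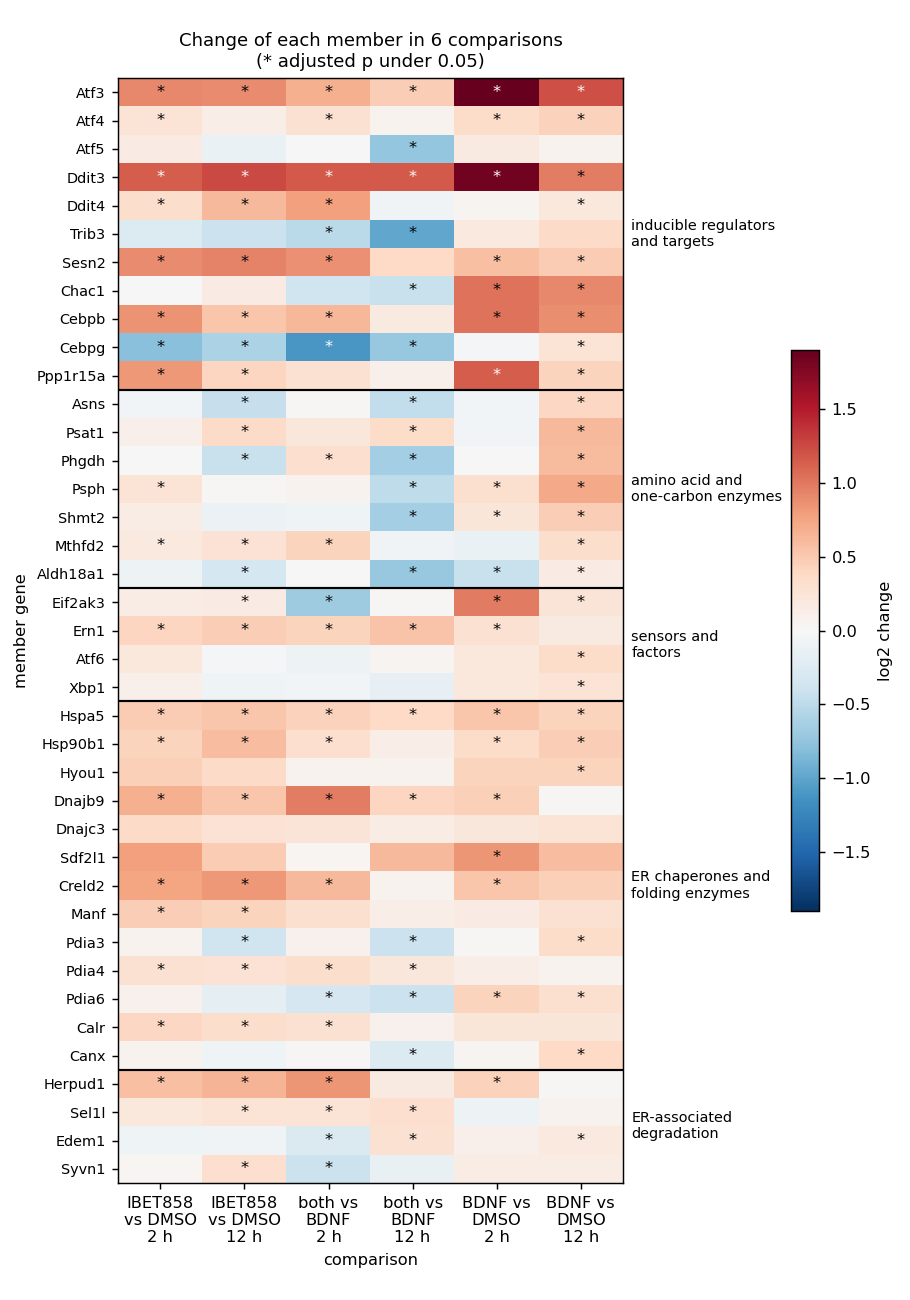
Log2 change of each of the 39 members (rows, ordered by role) in 6 comparisons (columns), by colour, where "both" is BDNF with IBET858 and a star marks an adjusted p under 0.05. Ddit3 and Atf3 rose in all 6, Cebpg fell wherever IBET858 was added, and the amino acid enzymes rose with BDNF at 12 h and mostly fell when IBET858 was added to it.

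The 11 inducible regulators and targets make up the first group of the ATF4 branch. IBET858 alone raised 7 of 11 and lowered 1 at 2 h (63.6% and 9.09%, beside 5.64% and 9.27% of all genes), and 7 and 3 without the DMSO array that stood apart. At 12 h it raised 6 and lowered 1 (54.5% and 9.09%, beside 22.9% and 25.8%). BDNF alone raised 7 (63.6%) at 2 h and 9 (81.8%) at 12 h and lowered 0 at each time, beside 9.79% of all genes raised at 2 h and 16.9% at 12 h, and without that array 6 rose and 1 fell at 2 h. With IBET858 added to BDNF, 6 rose and 2 fell at 2 h (54.5% and 18.2%, beside 12.2% and 14.9% of all genes). At 12 h 2 rose and 4 fell (18.2% and 36.4%), where 21.1% of all genes rose and 25.6% fell.

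Ddit3, which encodes CHOP, a factor of the late stress response, had the largest increase among the members with IBET858 alone at both times. Ddit3 values at 2 h were -2.03, -1.55 and -1.30 with DMSO, -0.48, -0.49 and -0.46 with IBET858, 0.20, 0.24 and 0.20 with BDNF and 1.41, 1.49 and 1.22 with both. Ddit3 values at 12 h were -1.08, -1.12 and -1.14 with DMSO, 0.13, 0.20 and 0.10 with IBET858, -0.09, -0.16 and -0.18 with BDNF and 0.97, 1.09 and 1.00 with both. At each time all DMSO arrays were lowest, all arrays with both agents were highest, and no arrays of different treatments overlapped. IBET858 alone raised it by 1.15 ± 0.11 (SE, 2.22-fold, limma adjusted p = 1.1e-07) at 2 h and by 1.26 ± 0.11 (adjusted p = 4.62e-09) at 12 h. On top of BDNF the increase was 1.16 and 1.16. BDNF raised it by 1.84 ± 0.11 at 2 h and by 0.97 ± 0.11 at 12 h, a smaller rise at the later time (difference -0.86, adjusted p = 0.000263, and -0.66 without the DMSO array that stood apart). The 2 h changes without that array were 0.95 with IBET858 and 1.63 with BDNF, both still called. The interaction of the agents was 0.01 at 2 h (0.22 without that array) and -0.09 at 12 h, with adjusted p of 0.976 (0.251 without it) and 0.744.

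Atf4 itself, whose product is controlled mainly at translation, moved much less. Atf4 values at 2 h were -0.38, -0.18 and -0.25 with DMSO, 0.01, 0.02 and -0.08 with IBET858, 0.10, 0.07 and 0.05 with BDNF and 0.38, 0.36 and 0.34 with both. Atf4 values at 12 h were -0.36, -0.38 and -0.53 with DMSO, -0.38, -0.29 and -0.22 with IBET858, -0.01, 0.12 and -0.07 with BDNF and 0.08, 0.08 and 0.07 with both. IBET858 raised it by 0.26 ± 0.06 at 2 h (limma adjusted p = 0.005), while at 12 h the 3 IBET858 arrays overlapped the DMSO arrays and the change was 0.13 ± 0.06 (adjusted p = 0.0931). BDNF raised it by 0.35 at 2 h and 0.44 at 12 h. With IBET858 added to BDNF it rose by 0.28 at 2 h, and at 12 h the change was 0.06 (adjusted p = 0.446). The 3 probe sets of Atf4 differed in size, from 0.12 to 0.79 with BDNF at 12 h, where 2 were called. With IBET858 at 2 h they ranged from 0.05 to 0.37, and 2 were called.

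Atf3, Cebpb and Ppp1r15a rose with each agent alone at both times. Atf3 encodes an early stress and activity-induced factor of the same family, Cebpb a partner of ATF4, and Ppp1r15a (GADD34) the subunit that brings a phosphatase to eIF2 and ends the arrest of translation. Atf3 values at 2 h were -1.09, -0.16 and -0.21 with DMSO, 0.40, 0.44 and 0.43 with IBET858, 1.30, 1.44 and 1.46 with BDNF and 2.06, 2.02 and 2.13 with both. Atf3 values at 12 h were -1.46, -1.41 and -1.41 with DMSO, -0.54, -0.37 and -0.66 with IBET858, -0.15, -0.23 and -0.23 with BDNF and 0.15, 0.32 and 0.33 with both. The treatments kept the same order at both times, DMSO, IBET858, BDNF, both, without overlap. Atf3 rose by 0.91 and 0.90 with IBET858 and by 1.89 (3.70-fold) and 1.22 with BDNF, at 2 h and 12 h, and by 0.67 and 0.47 when IBET858 joined BDNF. Its 2 h changes without the DMSO array that stood apart were 0.61 and 1.59.

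Cebpb values at 2 h were -1.17, -0.68 and -0.63 with DMSO, 0.13, 0.00 and -0.04 with IBET858, 0.21, 0.24 and 0.18 with BDNF and 0.84, 0.84 and 0.83 with both. Cebpb values at 12 h were -0.93, -0.84 and -0.94 with DMSO, -0.41, -0.33 and -0.40 with IBET858, 0.03, -0.04 and -0.04 with BDNF and 0.13, 0.16 and 0.17 with both. The 3 DMSO arrays were lowest at each time. It rose by 0.86 and 0.52 with IBET858 and by 1.04 and 0.89 with BDNF, and IBET858 on top of BDNF raised it at 2 h (0.63) but gave 0.17 ± 0.09 at 12 h (limma adjusted p = 0.145), which was called without the DMSO array that stood apart (adjusted p = 0.00582). Ppp1r15a values at 2 h were -1.25, -0.29 and -0.20 with DMSO, 0.26, 0.21 and 0.27 with IBET858, 0.62, 0.52 and 0.58 with BDNF and 0.89, 0.94 and 0.74 with both. Ppp1r15a values at 12 h were -0.61, -0.34 and -0.40 with DMSO, -0.07, -0.05 and -0.01 with IBET858, -0.02, -0.02 and -0.04 with BDNF and 0.01, 0.07 and 0.12 with both. The DMSO arrays were lowest at both times, and by 12 h the treated groups had drawn together. It rose with IBET858 by 0.83 at 2 h (0.49 without the DMSO array that stood apart) and 0.41 at 12 h, and with BDNF by 1.15 (0.81 without it) and 0.42.

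Sesn2 and Ddit4 both encode restraints on the growth kinase mTORC1, and both rose with the inhibitor. Sesn2 values at 2 h were -1.50, -0.67 and -0.47 with DMSO, 0.01, -0.01 and 0.07 with IBET858, -0.36, -0.27 and -0.32 with BDNF and 0.63, 0.54 and 0.49 with both. Sesn2 values at 12 h were -0.76, -0.33 and -0.42 with DMSO, 0.39, 0.31 and 0.62 with IBET858, 0.08, -0.04 and -0.08 with BDNF and 0.29, 0.43 and 0.37 with both. DMSO arrays were the lowest at each time, and the inhibitor arrays lay above the BDNF arrays at both times. IBET858 raised Sesn2 by 0.90 ± 0.16 (1.87-fold, limma adjusted p = 0.000397) at 2 h and by 0.94 ± 0.16 at 12 h, and on top of BDNF by 0.87 at 2 h. At 12 h on top of BDNF the change was 0.38 ± 0.16 (adjusted p = 0.0669, and 0.00164 without the DMSO array that stood apart, whose removal narrows the pooled spread). BDNF raised Sesn2 by 0.57 at 2 h and 0.49 at 12 h, but without that array the 2 h change was 0.25 ± 0.10 (adjusted p = 0.0828). The response of Ddit4 to the inhibitor depended on BDNF. IBET858 alone raised it by 0.33 at 2 h and 0.62 at 12 h, and with BDNF present it raised it by 0.78 ± 0.05 at 2 h and gave -0.07 ± 0.05 at 12 h (adjusted p = 0.323). The interaction was 0.45 at 2 h and -0.69 at 12 h, both called.

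Trib3, Cebpg, Chac1 and Atf5 did not follow Ddit3, although all are counted as ATF4 targets or partners. Trib3 encodes a pseudokinase that feeds back on ATF4 and CHOP. Trib3 values at 2 h were -0.81, 0.30 and 0.31 with DMSO, -0.35, -0.34 and -0.30 with IBET858, 0.15, 0.15 and 0.05 with BDNF and -0.35, -0.47 and -0.37 with both. Trib3 values at 12 h were 0.36, 0.43 and 0.27 with DMSO, 0.01, -0.02 and -0.13 with IBET858, 0.70, 0.78 and 0.66 with BDNF and -0.28, -0.27 and -0.25 with both. At both times every array with both agents lay below every BDNF array, and at 12 h every IBET858 array lay below every DMSO array. At 2 h the IBET858 arrays lay below 2 of the DMSO arrays and above the first replicate. In BDNF cultures IBET858 lowered Trib3, with a change of -0.51 ± 0.17 (limma adjusted p = 0.0311) at 2 h and -0.98 ± 0.17 (adjusted p = 5.5e-05) at 12 h. Against DMSO the inhibitor's change was -0.26 ± 0.17 (adjusted p = 0.357) at 2 h and -0.40 ± 0.17 (adjusted p = 0.0607) at 12 h. Both were called once the DMSO array that stood apart was left out, at -0.64 ± 0.06 (adjusted p = 1.39e-07) and -0.40 ± 0.05 (adjusted p = 1.95e-06). The change with BDNF turned direction at 2 h, from 0.18 ± 0.17 (adjusted p = 0.505) to -0.19 ± 0.06 (adjusted p = 0.0231) without that array, and at 12 h it was 0.36 (adjusted p = 0.107, and 9.97e-06 without it).

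Cebpg encodes a C/EBP protein that pairs with ATF4. Cebpg values at 2 h were 0.19, 0.33 and 0.37 with DMSO, -0.47, -0.45 and -0.58 with IBET858, 0.27, 0.31 and 0.26 with BDNF and -0.90, -0.71 and -0.89 with both. Cebpg values at 12 h were 0.27, 0.34 and 0.26 with DMSO, -0.22, -0.25 and -0.45 with IBET858, 0.58, 0.46 and 0.60 with BDNF and -0.17, -0.17 and -0.16 with both. Every array with the inhibitor lay below every array without it, at both times. IBET858 lowered Cebpg, with changes of -0.79 ± 0.07 at 2 h and -0.60 ± 0.07 at 12 h and limma adjusted p of 1.5e-08 and 1.6e-07. On top of BDNF the changes were -1.11 ± 0.07 and -0.71 ± 0.07. Its 3 probe sets were each called lower in these 4 comparisons, but with BDNF at 2 h 1 was called higher and 1 lower (-0.44 to 0.35), so its BDNF value of -0.02 is uncertain.

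Chac1, a glutathione-degrading enzyme, was called higher with BDNF and not with IBET858 alone. Chac1 values at 2 h were -1.27, -0.31 and -0.19 with DMSO, -0.56, -0.66 and -0.58 with IBET858, 0.45, 0.46 and 0.40 with BDNF and 0.07, 0.14 and -0.02 with both. Chac1 values at 12 h were -0.16, -0.10 and -0.24 with DMSO, -0.02, -0.04 and 0.02 with IBET858, 0.75, 0.77 and 0.74 with BDNF and 0.28, 0.31 and 0.40 with both. BDNF arrays were highest at both times. BDNF raised it by 1.02 at 2 h (0.69 without the DMSO array that stood apart) and 0.92 at 12 h. IBET858 added to BDNF gave -0.38 ± 0.16 at 2 h (limma adjusted p = 0.0884) and -0.43 ± 0.16 at 12 h (adjusted p = 0.0326). Without that array the fall at 2 h was called too (adjusted p = 9.48e-06), and IBET858 against DMSO at 2 h moved from -0.01 to -0.35, which was called lower. At 12 h the inhibitor gave 0.15 (adjusted p = 0.449), called higher without that array (adjusted p = 0.02). Atf5, a related factor, fell when IBET858 was added to BDNF for 12 h (-0.73 ± 0.08, adjusted p = 1.12e-07). Its 12 h values were 0.21, 0.20 and 0.17 with BDNF and -0.57, -0.57 and -0.49 with both. IBET858 alone changed it by -0.12 (adjusted p = 0.227), and the interaction was -0.61 (adjusted p = 0.000793).

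**Figure D2:**
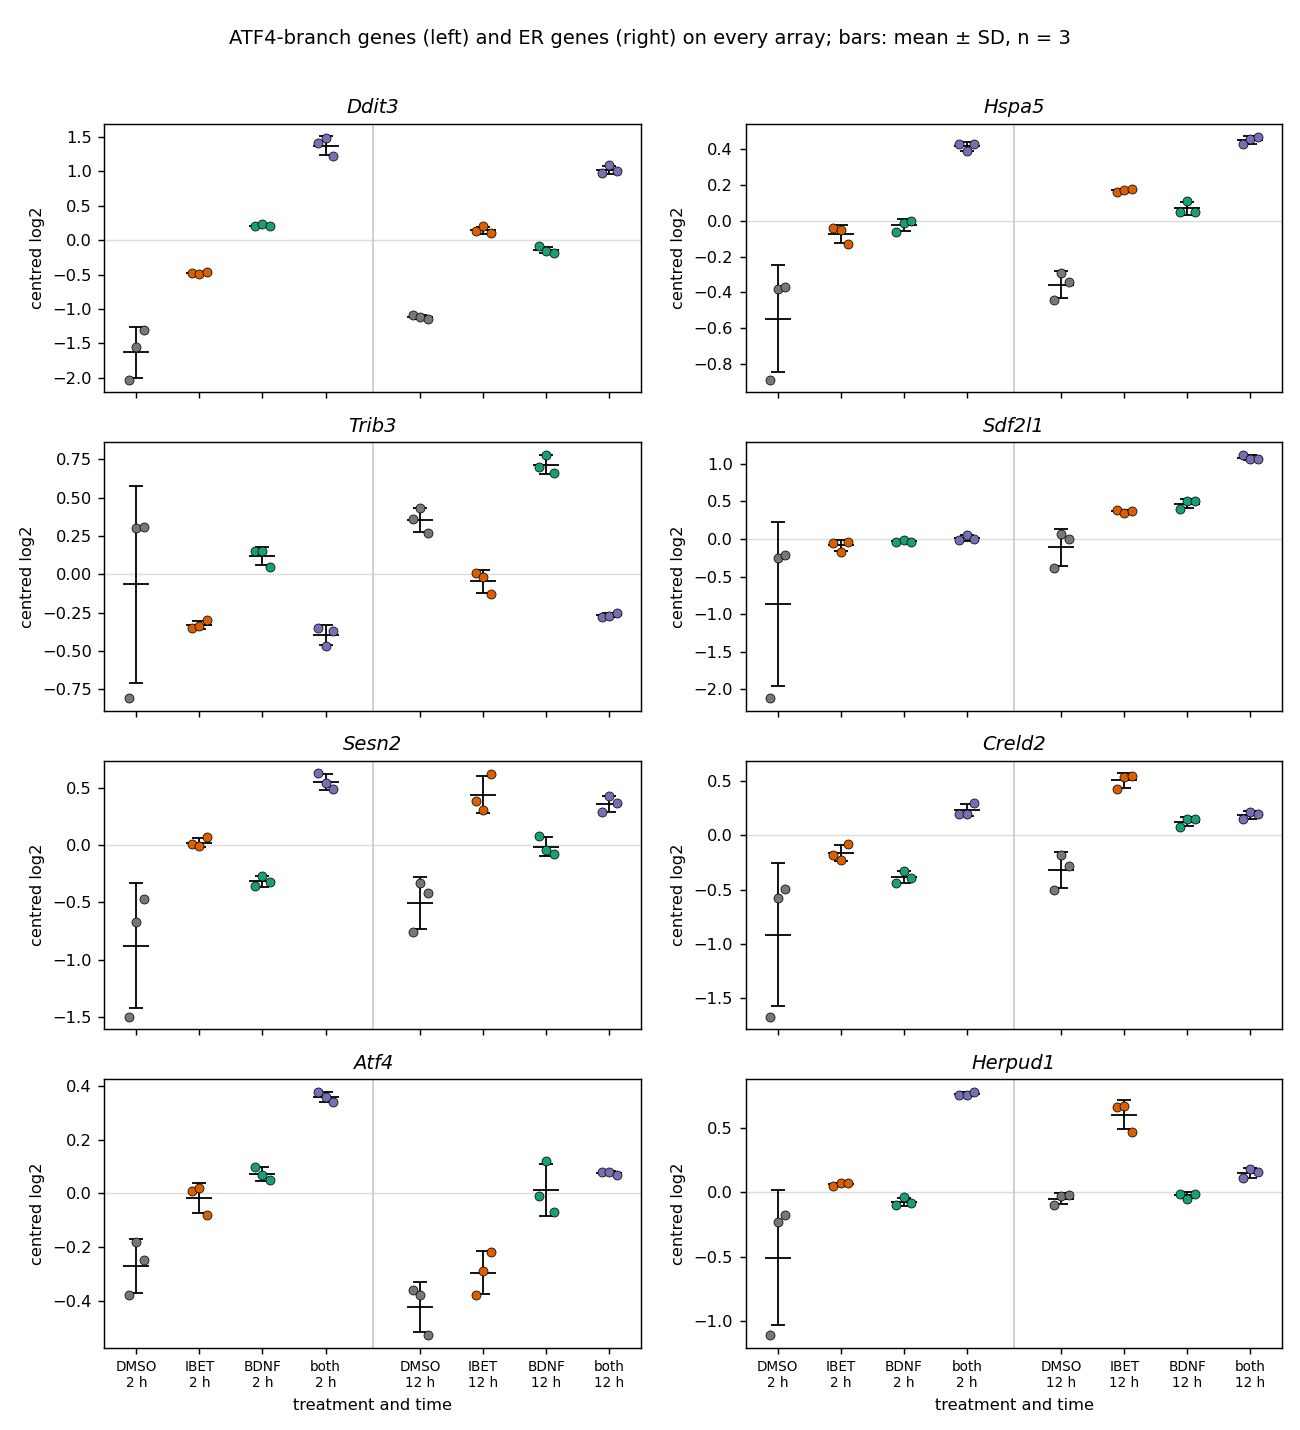
Centred log2 value of 4 ATF4-branch genes (left) and 4 genes of the ER chaperone branch (right) on every array (points), by treatment and time, where "IBET" is IBET858 and "both" is BDNF with IBET858; bars give the mean and SD of 3 arrays. Among the 12 h groups Trib3 was lowest with both agents, where Ddit3 was highest. The first DMSO array at 2 h lay far below its group in Sdf2l1 (-2.12), Creld2 (-1.67) and Trib3 (-0.81).

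The 7 enzymes of amino acid and one-carbon synthesis changed more with BDNF at 12 h than at 2 h. Asns makes asparagine. Phgdh, Psat1 and Psph make serine, Shmt2 and Mthfd2 move its carbon into mitochondrial folate, and Aldh18a1 starts proline synthesis. At 2 h IBET858 raised 2 of 7 (28.6%) and lowered 0, beside 5.64% and 9.27% of all genes. Without the DMSO array that stood apart it changed 0 of 7, where 4.96% of all genes rose and 8.99% fell. Added to BDNF at 2 h, IBET858 raised Mthfd2 (0.42) and Phgdh (0.31), or 28.6%, and lowered 0, beside 12.2% and 14.9% of all genes. With the DMSO array that stood apart left out, 3 rose and 0 fell there, beside 13.8% and 16.1%. BDNF raised 2 and lowered 1 at 2 h, or 1 and 1 without that array, shares of 28.6% and 14.3% with all arrays beside 9.79% and 18.1% of all genes. At 12 h BDNF raised 7 of 7, where 16.9% of all genes rose, with a median change of 0.47 beside -0.01 over all genes. The BDNF effect was larger at 12 h than at 2 h for 6 of the 7 (85.7%) by limma's test of that difference, beside 12.9% of all genes. Without the DMSO array that stood apart it was larger for 7 of 7, beside 14.5% of all genes.

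Asns values at 2 h were 0.14, 0.00 and -0.02 with DMSO, 0.02, -0.05 and -0.02 with IBET858, -0.06, 0.02 and -0.02 with BDNF and -0.02, 0.08 and -0.06 with both. Asns values at 12 h were 0.17, 0.03 and -0.05 with DMSO, -0.40, -0.32 and -0.45 with IBET858, 0.47, 0.46 and 0.40 with BDNF and -0.01, -0.04 and -0.03 with both. The 2 h groups overlapped, and at 12 h the BDNF arrays were above and the IBET858 arrays below all others. BDNF raised Asns by 0.39 ± 0.06 at 12 h (limma adjusted p = 1.19e-05), with -0.06 at 2 h (adjusted p = 0.535). IBET858 lowered it at 12 h both alone (-0.44 ± 0.06) and on top of BDNF (-0.47 ± 0.06), with -0.06 and 0.02 at 2 h, neither called. The interaction at 12 h was -0.03 ± 0.08 (adjusted p = 0.865), so the falls with and without BDNF did not differ beyond that error.

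At 12 h with BDNF, Psph rose by 0.72, Psat1 by 0.61, Phgdh by 0.60, Shmt2 by 0.47, Mthfd2 by 0.34 and Aldh18a1 by 0.16. When IBET858 was added to BDNF, Aldh18a1 changed by -0.72 ± 0.05 (limma adjusted p = 1.57e-10), Shmt2 by -0.65, Phgdh by -0.64 and Psph by -0.48, all called lower. Psat1 did the opposite, rising by 0.35 ± 0.09, and Mthfd2 was not called (-0.06, adjusted p = 0.48). These comparisons share the BDNF arrays, on which most of the enzymes were highest, so each is given with its own values. IBET858 against DMSO at 12 h, which uses none of those arrays, lowered Phgdh (-0.43) and Aldh18a1 (-0.33) and raised Psat1 by 0.36 and Mthfd2 by 0.28. Psph (0.03) and Shmt2 (-0.11) were not called there, and both had a negative interaction at 12 h (-0.51 and -0.55, adjusted p = 0.00177 and 0.00238).

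Aldh18a1 differed from the other enzymes in its early response. Its group means at 2 h were 0.16 ± 0.03 (SD, n = 3) with DMSO and -0.26 ± 0.06 with BDNF, a fall with all 5 probe sets called lower (-0.43 ± 0.05, limma adjusted p = 1.55e-06, and -0.42 without the DMSO array that stood apart). By 12 h the BDNF mean was 0.45 ± 0.02 against 0.30 ± 0.10 with DMSO, and the mean with both agents was -0.27 ± 0.05. Psat1 had its highest mean with both agents at 12 h (0.92 ± 0.09), above BDNF (0.57 ± 0.04), IBET858 (0.32 ± 0.17) and DMSO (-0.05 ± 0.15). Phgdh, which acts just before Psat1, had its lowest mean with IBET858 alone (-0.36 ± 0.11) and its highest with BDNF (0.67 ± 0.07).

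**Figure D3:**
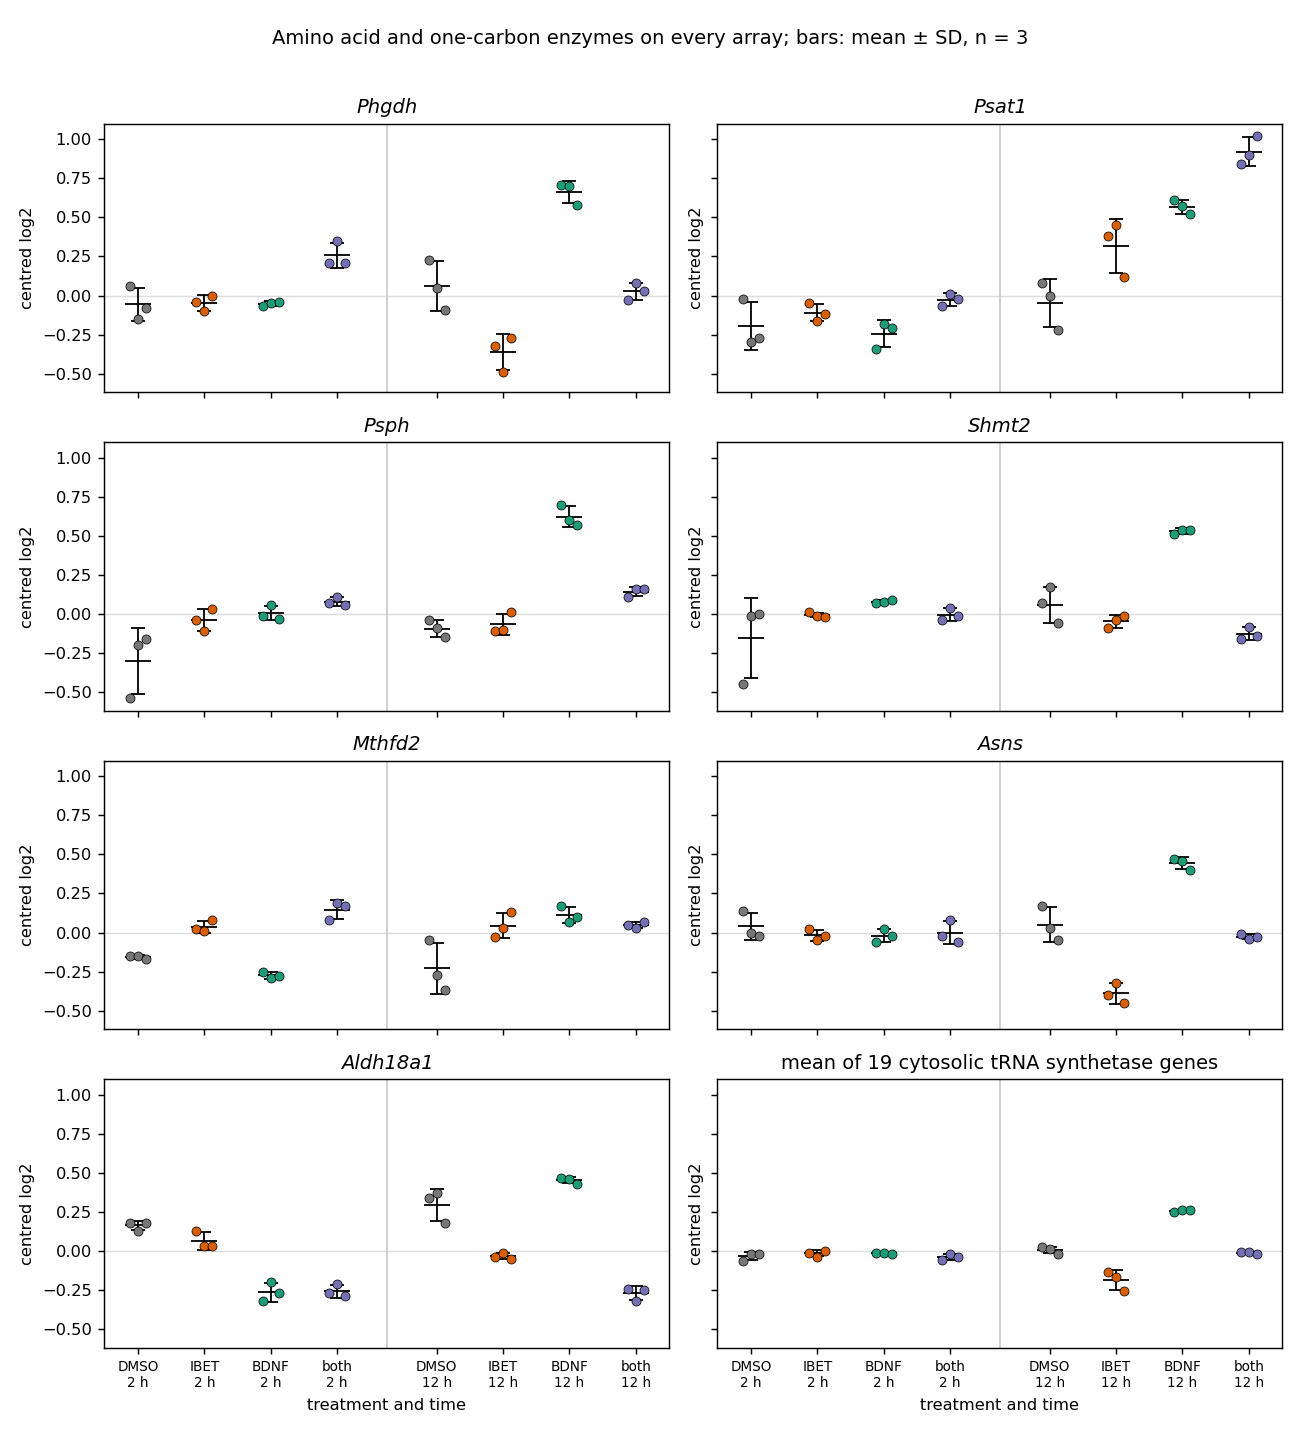
Centred log2 value of the 7 amino acid and one-carbon enzymes, and the mean over 19 cytosolic tRNA synthetase genes, on every array (points) by treatment and time; bars give the mean and SD of 3 arrays. BDNF arrays at 12 h lay above DMSO for all 7 enzymes, and arrays with both agents lay between -0.32 and 0.16 for the enzymes other than Psat1 (0.84 to 1.02).

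Genes next to the members in the same pathways gave the context of the enzyme pattern. Aminoacyl-tRNA synthetases load amino acids onto tRNA, and several are known ATF4 targets. Of 19 measured, IBET858 changed 0 at 2 h (0 higher and 0 lower, beside 5.64% and 9.27% of all genes). At 12 h it lowered 11 and raised 2 (57.9% and 10.5%, beside 25.8% and 22.9% of all genes), with a median of -0.20. With the DMSO array that stood apart left out, 1 was called lower at 2 h, beside 8.99% of all genes. BDNF raised 14 and lowered 2 at 12 h (73.7% and 10.5%, beside 16.9% and 24.2%; median 0.28). IBET858 on top of BDNF lowered 13 and raised 1 (68.4% and 5.26%, beside 25.6% and 21.1%; median -0.33). Vars changed by -0.77 with IBET858 at 12 h and by -0.75 on top of BDNF, Lars by -0.55 and -0.63, and Tars went the other way with 0.65 with IBET858 alone. The list mean of the synthetases was 0.258 ± 0.006 (SD, n = 3) with BDNF at 12 h, 0.007 ± 0.021 with DMSO and -0.185 ± 0.061 with IBET858.

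Of 9 amino acid transporters, IBET858 raised 2 (22.2%) and lowered 0 at 2 h, with and without the DMSO array that stood apart. The share of all genes that rose was 5.64% with that array and 4.96% without it. At 12 h IBET858 raised 4 and lowered 2 (44.4% and 22.2%, beside 22.9% and 25.8% of all genes). BDNF raised 5 and lowered 0 at 12 h (55.6%, beside 16.9%). Slc1a5, a glutamine carrier, rose with the inhibitor at both times (0.85 and 0.83, and 1.30 and 0.74 on top of BDNF). Slc6a9, a glycine carrier, fell at 12 h (-0.65 and -0.80), and Slc7a1, which imports arginine and lysine, rose by 0.64 with BDNF and changed by -0.57 when IBET858 was added. Of 14 other genes of the eIF2 pathway, IBET858 lowered 5 and raised 2 at 12 h (35.7% and 14.3%), shares not far from the 25.8% and 22.9% of all genes. Eif4ebp1, a repressor of cap-dependent translation, changed by -1.46 ± 0.06 with IBET858 at 12 h (limma adjusted p = 4.55e-14), the mitochondrial folate enzyme gene Mthfd1l by -1.20 and the lipoprotein receptor gene Vldlr by -1.10. On top of BDNF they changed by -1.78, -1.79 and -0.94, all called lower. Ppp1r15b, a gene related to Ppp1r15a, rose by 0.99 with BDNF at 2 h (0.88 without the DMSO array that stood apart).

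Among the 4 sensors and their factors, Eif2ak3 had the largest change with BDNF at 2 h and Ern1 with IBET858 alone at both times. Eif2ak3 values at 2 h were -0.20, -0.21 and -0.23 with DMSO, -0.12, -0.10 and -0.01 with IBET858, 0.75, 0.83 and 0.75 with BDNF and 0.14, 0.12 and 0.04 with both. Eif2ak3 values at 12 h were -0.21, -0.23 and -0.19 with DMSO, 0.04, -0.01 and -0.19 with IBET858, 0.01, -0.06 and 0.14 with BDNF and -0.05, 0.15 and 0.04 with both. BDNF arrays at 2 h stood above all others, and by 12 h the treated groups overlapped. BDNF raised Eif2ak3 by 0.99 ± 0.06 (1.98-fold, limma adjusted p = 1.19e-10) at 2 h, the same without the DMSO array that stood apart, and by 0.24 at 12 h. IBET858 alone changed it by 0.13 at 2 h (adjusted p = 0.182) and was called higher at 12 h (0.16, adjusted p = 0.0449), a call that 16 of 34 alternatives ended, but on top of BDNF it lowered it at 2 h (-0.68 ± 0.06, adjusted p = 2.48e-08). The interaction was -0.81 ± 0.09 (adjusted p = 2.41e-06). All 3 probe sets were called higher with BDNF at 2 h, over a range of 0.47 to 1.52, and 2 were called lower when IBET858 was added.

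Ern1 rose with IBET858 by 0.40 at 2 h and 0.47 at 12 h, on top of BDNF by 0.42 and 0.55, and with BDNF at 2 h by 0.29. Its 2 h changes were 0.47 with IBET858 and 0.36 with BDNF when the DMSO array that stood apart was left out. At 12 h with BDNF alone the change was 0.16 (limma adjusted p = 0.0657, 0.0444 without the DMSO array that stood apart). Its 5 probe sets differed in size, from 0.04 to 1.37 with IBET858 at 12 h, where 2 were called. Atf6 and Xbp1 rose with BDNF at 12 h (0.35 and 0.26) and were called in none of the 4 comparisons in which IBET858 was added. Their changes in those comparisons lay between -0.16 and 0.20. Arrays of this kind do not show the splicing of Xbp1 or the cleavage of Atf6.

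In the ER chaperone branch, 8 of 17 members rose with IBET858 at 2 h (47.1%) and 0 fell, beside 5.64% and 9.27% of all genes. At 12 h 10 rose and 1 fell (58.8% and 5.88%), beside 22.9% and 25.8% of all genes. The medians were 0.40 and 0.34, beside 0.02 and 0.04 over all genes. Without the DMSO array that stood apart the counts were 5 and 0 at 2 h, with a median of 0.17, beside 4.96% and 8.99% of all genes. At 12 h they were 13 and 2, where 24.0% of all genes were then called higher and 27.0% lower. BDNF raised 7 (41.2%) and lowered 0 at each time, where 9.79% of all genes rose and 18.1% fell at 2 h. At 12 h 16.9% of all genes rose and 24.2% fell. If the DMSO array that stood apart was left out, BDNF raised 3 at 2 h, with a median of 0.10, beside 8.13% of all genes higher and 16.3% lower. It then raised 13 at 12 h, beside 17.8% of all genes higher and 25.3% lower, and lowered 0 at each time.

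Hspa5, which encodes the main ER chaperone BiP and is the usual marker of the response, rose in each comparison. Hspa5 values at 2 h were -0.89, -0.38 and -0.37 with DMSO, -0.04, -0.05 and -0.13 with IBET858, -0.06, -0.01 and 0.00 with BDNF and 0.43, 0.39 and 0.43 with both. Hspa5 values at 12 h were -0.44, -0.29 and -0.34 with DMSO, 0.16, 0.17 and 0.18 with IBET858, 0.05, 0.11 and 0.05 with BDNF and 0.43, 0.46 and 0.47 with both. DMSO arrays were lowest and arrays with both agents highest at each time, and with a single agent the values lay between. IBET858 raised Hspa5 by 0.48 ± 0.09 at 2 h (limma adjusted p = 0.000447; 0.31 without the DMSO array that stood apart) and by 0.53 ± 0.09 at 12 h, and on top of BDNF by 0.44 and 0.38. BDNF raised it by 0.53 (0.36 without that array) and 0.42. The interaction was -0.04 at 2 h (0.13 without that array) and -0.14 at 12 h, with adjusted p of 0.912 (0.321 without it) and 0.484. Its promoter holds the element printed above.

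Sdf2l1 and Creld2 encode ER proteins that are strongly induced by unfolded proteins, and both depended on the DMSO array that stood apart. Sdf2l1 values at 2 h were -2.12, -0.26 and -0.22 with DMSO, -0.05, -0.17 and -0.04 with IBET858, -0.04, -0.01 and -0.04 with BDNF and -0.02, 0.05 and 0.00 with both. Sdf2l1 values at 12 h were -0.39, 0.06 and 0.00 with DMSO, 0.38, 0.35 and 0.37 with IBET858, 0.40, 0.51 and 0.50 with BDNF and 1.12, 1.06 and 1.06 with both. At 2 h the treated arrays lay between -0.17 and 0.05 and 2 DMSO arrays just below all of them, with the first replicate at -2.12. At 12 h the arrays with both agents stood above all others. With all arrays Sdf2l1 was called at 2 h with BDNF (0.84 ± 0.29, limma adjusted p = 0.0335), and IBET858 gave 0.78 ± 0.29 (adjusted p = 0.0773). Without the array these were 0.21 ± 0.09 (adjusted p = 0.0896) and 0.15 ± 0.09 (adjusted p = 0.305). At 12 h the reverse held: no change was called with all arrays, and without it IBET858 (0.48 ± 0.08), BDNF (0.58 ± 0.08) and IBET858 on top of BDNF (0.61 ± 0.08) were each called higher, with adjusted p of 2.66e-05, 3.11e-06 and 1.01e-06. The 12 h values do not include that array, which entered only through the spread shared by all groups.

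Creld2 values at 2 h were -1.67, -0.58 and -0.49 with DMSO, -0.18, -0.23 and -0.08 with IBET858, -0.44, -0.33 and -0.39 with BDNF and 0.20, 0.20 and 0.30 with both. Creld2 values at 12 h were -0.50, -0.18 and -0.28 with DMSO, 0.43, 0.54 and 0.55 with IBET858, 0.08, 0.15 and 0.15 with BDNF and 0.15, 0.22 and 0.20 with both. DMSO arrays were lowest at 2 h, and at 12 h the IBET858 arrays were highest. IBET858 raised Creld2 by 0.75 ± 0.18 at 2 h (limma adjusted p = 0.00551), or 0.37 ± 0.07 without the array that stood apart (adjusted p = 0.00143), and by 0.83 ± 0.18 (1.77-fold) at 12 h. On top of BDNF it rose by 0.62 at 2 h, while at 12 h the change was 0.06 (adjusted p = 0.831) and the interaction -0.77 ± 0.25 (adjusted p = 0.044). Of 34 alternatives 21 ended the call of that interaction, and without the DMSO array that stood apart its adjusted p was 6.78e-06. BDNF raised it by 0.52 at 2 h, which without that array was 0.15 (adjusted p = 0.187). At 12 h BDNF gave 0.45 (adjusted p = 0.0516, and 1.12e-05 without it).

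Of the other chaperones and folding enzymes, Dnajb9, an XBP1-dependent partner of BiP, rose furthest with the inhibitor at 2 h. With IBET858 it rose by 0.67 ± 0.10 at 2 h (0.48 without the DMSO array that stood apart) and 0.52 at 12 h, and on top of BDNF by 0.98 ± 0.10 (1.97-fold, limma adjusted p = 1.71e-07) and 0.42. Its values at 2 h were -0.14, -0.08 and -0.04 with BDNF and 0.86, 0.89 and 0.93 with both, with no overlap. Hsp90b1, the ER member of the HSP90 family, rose with IBET858 by 0.42 at 2 h and 0.58 at 12 h, and Calr, which encodes the lectin chaperone calreticulin, by 0.40 and 0.34. Manf, a secreted ER protein with neurotrophic activity, rose by 0.47 and 0.42, and the disulfide isomerase gene Pdia4 by 0.29 and 0.27. Without that array the 2 h rises of Hsp90b1 (0.26, adjusted p = 0.0988), Manf (0.18, 0.211) and Pdia4 (0.19, 0.0714) were not called. On top of BDNF at 2 h, Pdia4 rose by 0.33 and Hsp90b1 by 0.32, and 6 of 34 alternatives ended the call of Hsp90b1.

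Some folding genes went the other way at 12 h. Pdia3, the isomerase that works with calnexin and calreticulin, was lower with IBET858 alone (-0.37 ± 0.08, limma adjusted p = 0.000572) and on top of BDNF (-0.40 ± 0.08, adjusted p = 0.00024), and higher with BDNF (0.35). Of its 2 probe sets 1 was called lower in each fall, over ranges of -0.51 to -0.23 and -0.66 to -0.15. Pdia6 rose with BDNF at both times (0.43 and 0.31) and fell when IBET858 was added (-0.32 and -0.41). Canx, which encodes calnexin, rose with BDNF at 12 h (0.38) and fell when IBET858 was added (-0.26). Of its 3 probe sets 1 was called lower in that fall, over a range of -0.59 to -0.09. Hyou1 was called higher with BDNF at 12 h (0.42), by 1 of its 3 probe sets, and 19 of 34 alternatives ended that call. Dnajc3 was called in none of the 8 comparisons of 2 groups, its changes lying between 0.10 and 0.36. Its 5 probe sets differed, and 2 were called higher with IBET858 at each time (ranges 0.20 to 0.61 at 2 h and -0.21 to 0.83 at 12 h). Without the DMSO array that stood apart Hyou1 and Dnajc3 were both called higher with IBET858 at 12 h (adjusted p = 0.00132 and 0.00969). Pdia6, Canx and Dnajc3 carry the same promoter element as Hspa5 and Creld2.

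The 4 genes of ER-associated degradation divided. Herpud1, a scaffold of the retrotranslocation complex, was called higher with IBET858 alone at both times. It rose by 0.57 ± 0.14 at 2 h (limma adjusted p = 0.00745; 0.27 without the DMSO array that stood apart, still called) and 0.65 ± 0.14 at 12 h. On top of BDNF it rose by 0.84 ± 0.14 at 2 h and changed by 0.18 at 12 h (adjusted p = 0.354). Its 2 h values were -0.10, -0.04 and -0.08 with BDNF and 0.75, 0.75 and 0.78 with both, and its 12 h values 0.66, 0.67 and 0.47 with IBET858 against 0.11, 0.18 and 0.16 with both. BDNF added to IBET858 thus raised it at 2 h (0.70) and lowered it at 12 h (-0.45).

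Syvn1 (HRD1), the ubiquitin ligase of the complex, rose with IBET858 alone at 12 h (0.32) and fell when IBET858 was added to BDNF at 2 h (-0.41 ± 0.09, limma adjusted p = 0.000855). Its interaction was -0.44 at 2 h, or -0.28 without the DMSO array that stood apart (adjusted p = 0.0183), a call that 5 of 34 alternatives ended, and -0.47 at 12 h. Edem1, which picks misfolded glycoproteins for disposal, also fell at 2 h when IBET858 was added to BDNF (-0.27) and rose at 12 h (0.29). Its 12 h values were 0.06, 0.23 and 0.12 with BDNF and 0.39, 0.42 and 0.46 with both, while IBET858 alone gave -0.06 (adjusted p = 0.301), and the interaction was 0.36 (adjusted p = 0.00143). Its 2 probe sets disagreed at 12 h. On top of BDNF they gave -0.07 and 0.65, with 1 called higher. With IBET858 alone they gave -0.28, called lower, and 0.15, not called. Sel1l, the partner of Syvn1, was called higher with IBET858 at 12 h (0.26, with overlapping arrays) and on top of BDNF at both times (0.26 and 0.31). Its 5 probe sets disagreed, and with BDNF at 12 h 1 was called higher and 1 lower.

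Further ER genes outside the set were also measured. Of 27 measured, IBET858 raised 6 (22.2%, beside 5.64% of all genes) and lowered 0 at 2 h and raised 10 and lowered 4 at 12 h (37.0% and 14.8%, beside 22.9% and 25.8% of all genes), with medians of 0.14 and 0.12. If the DMSO array that stood apart was left out, it raised 5 and lowered 2 at 2 h, with a median of 0.05, beside 4.96% and 8.99% of all genes. Creb3l2, an ER-held factor related to ATF6, rose by 0.71 at 2 h (0.45 without that array) and 1.22 at 12 h with IBET858 and by 1.38 on top of BDNF at 12 h. The oxidase gene Ero1b rose by 0.37 and 0.60, and by 0.78 and 1.07 on top of BDNF. Mbtps2, one of the proteases that release ATF6, fell at 12 h (-0.92).

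List means by array show the branches side by side. The 11 inducible regulators and targets averaged -0.403 ± 0.051 (SD, n = 3) with DMSO, -0.057 ± 0.019 with IBET858, 0.164 ± 0.026 with BDNF and 0.111 ± 0.037 with both at 12 h. The 7 enzymes averaged 0.014 ± 0.111, -0.076 ± 0.011, 0.486 ± 0.034 and 0.103 ± 0.020 in the same order. The ER chaperone branch averaged -0.165 ± 0.094, 0.138 ± 0.093, 0.109 ± 0.024 and 0.214 ± 0.015. With both agents the enzymes were thus well below BDNF alone while the ER chaperone branch was above it. The means hold genes that moved in opposite directions, such as Ddit3 and Trib3, and describe the lists only.

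**Figure D4:**
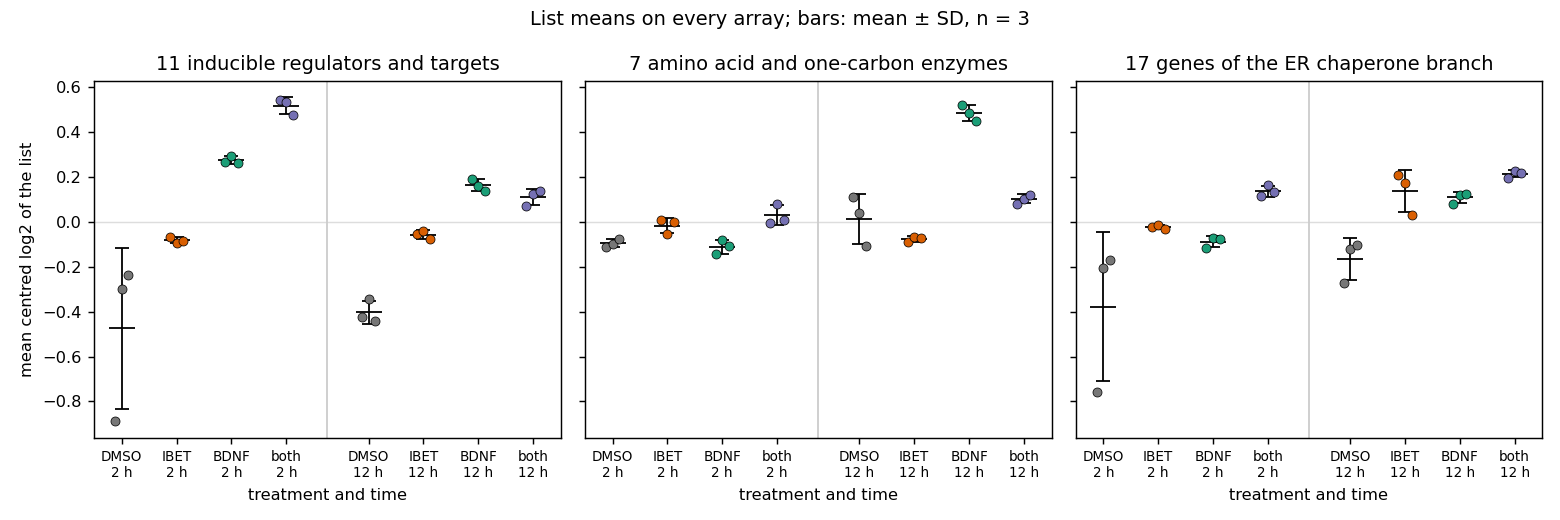
Mean centred log2 value of the 11 inducible regulators and targets, the 7 enzymes and the 17 genes of the ER chaperone branch on every array (points), by treatment and time, where "IBET" is IBET858 and "both" is BDNF with IBET858; bars give the mean and SD of 3 arrays. The first DMSO array at 2 h was the lowest point for the regulators (-0.889) and for the ER chaperone branch (-0.759), and not for the enzymes.

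BDNF still acted on many members in the presence of the inhibitor. At 2 h, against IBET858 alone, BDNF with IBET858 raised Ddit3 by 1.85, Atf3 by 1.65, Cebpb by 0.80, Chac1 by 0.66, Ppp1r15a by 0.61, Sesn2 by 0.53, Ddit4 by 0.51 and Atf4 by 0.37. Of the ER chaperone branch it raised Dnajb9 (0.76), Herpud1 (0.70) and Hspa5 (0.49) and lowered Syvn1 (-0.29). Of the sensors it raised Ern1 (0.31), with 0.17 for Eif2ak3, -0.09 for Atf6 and 0.05 for Xbp1. Trib3, Asns, Sdf2l1 and Creld2 were not called there (-0.07, 0.02, 0.10 and 0.40). At 12 h Ddit3 (0.88), Atf3 (0.79), Psat1 (0.60), Cebpb (0.53), Phgdh (0.39), Atf4 (0.37), Asns (0.36), Edem1 (0.54), Pdia3 (0.32) and Hspa5 (0.28) were higher with BDNF added to IBET858, and Atf5 (-0.55), Ddit4 (-0.48), Herpud1 and Syvn1 (-0.33) were lower. Atf6 (0.43) and Ern1 (0.24) were called higher as well. Trib3, Sesn2, Sdf2l1 and Creld2 gave -0.22, -0.08, 0.71 and -0.32, not called with all arrays. Leaving out the DMSO array that stood apart, which no value of this comparison includes, limma called Sdf2l1 higher (adjusted p = 2.35e-07), and Creld2 (0.000586) and Trib3 (0.00214) lower, with 0.549 for Sesn2. Then 16 members were higher and 7 lower, against 17.1% and 24.7% of all genes.

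The interaction tests whether the inhibitor effect differed with and without BDNF. It was called higher for 1 and lower for 3 of 39 at 2 h, against 3.11% and 5.29% of all genes, and higher for 1 and lower for 8 (20.5%) at 12 h, against 8.94% and 7.24%. The inhibitor effect differed between 12 h and 2 h upward for 1 member and downward for 5, against 15.8% and 17.4% of all genes, and the BDNF effect upward for 9 and downward for 5, against 12.9% and 11.9%. When the DMSO array that stood apart was left out, the 2 h interaction was higher for 3 and lower for 2, against 2.92% and 4.77% of all genes: Dnajb9 (0.50) and Herpud1 (0.57) gained the call, and Cebpg (-0.26, adjusted p = 0.11) lost it. The inhibitor effect was then larger at 12 h for 11 members and smaller for 4, against 16.6% and 18.2% of all genes, with Chac1 (0.51), Creld2 (0.46) and Syvn1 (0.45) among those that gained the call. The BDNF effect was larger for 15 and smaller for 4, against 14.5% and 13.1%, with Trib3 (0.55) and Manf (0.42) among those gained. At 12 h the interactions rested on the array that stood apart only through the shared spread: without it 17 members were called lower and 1 higher, against 9.08% and 10.7% of all genes. Among those called were then Trib3 (-0.58), Chac1 (-0.58), Sesn2 (-0.56), Herpud1 (-0.47) and Atf3 (-0.43), each with a smaller or more negative inhibitor effect when BDNF was present.

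**Figure D5:**
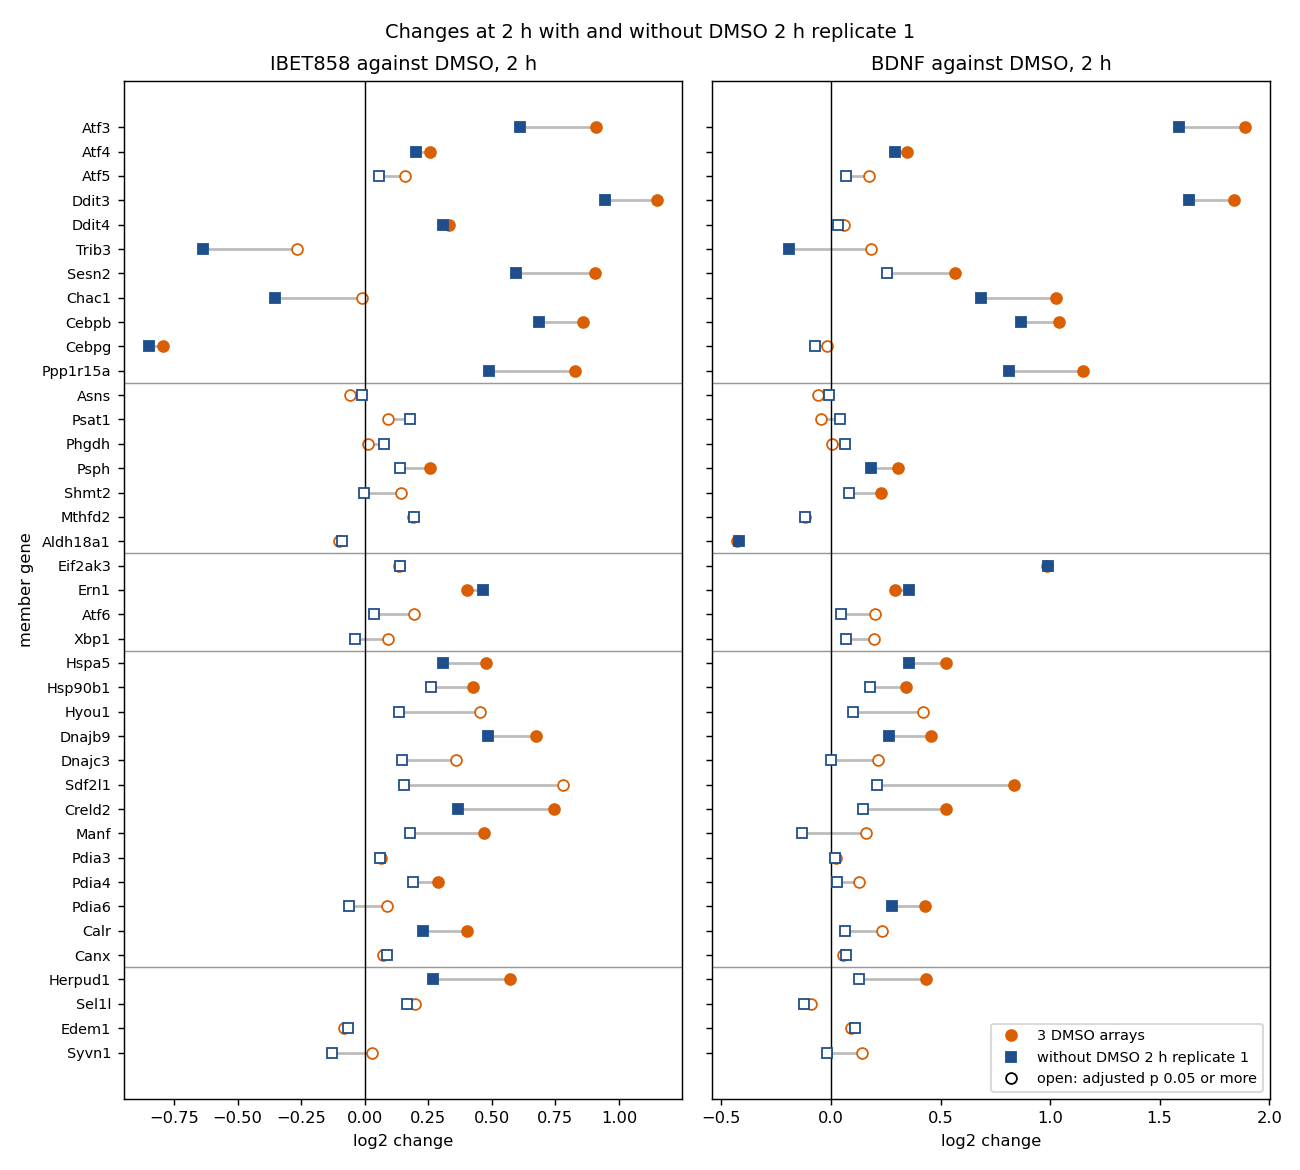
Log2 change at 2 h of each member with IBET858 (left) and with BDNF (right), from all 3 DMSO arrays (circles) and without the first DMSO replicate (squares); filled symbols have an adjusted p under 0.05. Most changes shrank without the array, Sdf2l1 from 0.78 to 0.15 with IBET858, while Ddit3 kept 0.95 and Trib3 moved from -0.26 to -0.64.

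Leaving out the DMSO array that stood apart changed which members were called at 2 h. With IBET858, Ddit3 (0.95), Cebpb (0.69), Atf3 (0.61), Sesn2 (0.59), Ppp1r15a (0.49), Ddit4 (0.31) and Atf4 (0.20) were higher and Cebpg (-0.85), Trib3 (-0.64) and Chac1 (-0.35) lower. These were 7 and 3 of the 18 genes of the ATF4 branch, where 4.96% of all genes were higher and 8.99% lower. In the ER chaperone branch Dnajb9 (0.48), Creld2 (0.37), Hspa5 (0.31), Herpud1 (0.27) and Calr (0.23) were higher and 0 lower. With BDNF, 7 of 18 ATF4-branch genes were higher and 2 lower, beside 8.13% and 16.3% of all genes. Of the 17 ER genes 3 were higher, Hspa5 (0.36), Pdia6 (0.28) and Dnajb9 (0.26). The calls lost without the array were those of Psph, Mthfd2, Hsp90b1, Manf and Pdia4 with IBET858 and of Sesn2, Shmt2, Hsp90b1, Sdf2l1, Creld2 and Herpud1 with BDNF.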

How the data were processed

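RNA of 24 samples was measured on 1 array each. The authors' deposited values are log2 RMA expression values, per the submitters' processing notes naming RMA; the log base is that of RMA and is not stated. The values of each of the 45101 probe sets have a median of 0 over the 24 arrays (tolerance 1e-06), so levels, and a filter on dim probe sets, were out of reach. Depth has no counterpart on arrays, and 3 arrays a group limit the precision. A gene's value is the mean of the probe sets naming it alone (34958 probe sets, 18194 genes). Group means of all 8 groups were fitted with limma 3.58.1 in R 4.3.3 (16 residual degrees of freedom, 4.451 prior), with 13 contrasts and Benjamini-Hochberg adjustment over all genes, called at an adjusted p under 0.05. The script was tested on simulated data. Same-numbered arrays showed no general pairing: the median correlations of their deviations were -0.012, 0.032 and -0.002, with the lowest at -0.200. The highest, 0.509, was between the first DMSO arrays of 2 h and 12 h, so these shared part of their deviation. Of the 24 arrays 10 correlated best with an array of their own number. No arrays were duplicates. Named genes were drawn, per comparison and branch, from the called members with the largest changes (up to 8 of each branch and all 4 sensors). Some called members within these limits were not given a value in every comparison. Atf4, Ddit3, Trib3, Sesn2, Asns, Hspa5, Sdf2l1 and Creld2 were named throughout. The next 6 members by change are also shown by array. Other pathway genes were named up to 3 per list, and some ER degradation genes and group means were added after their values were seen. The members and lists were chosen with earlier results of these data known. Promoters came from RefSeq.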

Additional observations from a re-analysis of the deposited data

Results flagged for a closer look

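Some members differed in their inhibitor effect with and without BDNF, by limma's interaction test. At 2 h the interaction was 0.45 for Ddit4 (adjusted p = 0.000311), -0.32 for Cebpg (0.0405), -0.81 for Eif2ak3 (2.41e-06) and -0.44 for Syvn1 (0.0252), which was -0.28 without the DMSO array that stood apart. At 12 h it was negative for Atf5 (-0.61), Ddit4 (-0.69), Psph (-0.51), Shmt2 (-0.55), Mthfd2 (-0.34), Aldh18a1 (-0.39), Creld2 (-0.77) and Syvn1 (-0.47), and positive for Edem1 (0.36). The 2 probe sets of Edem1 differed in sign for the inhibitor effect at 12 h, with and without BDNF. Of 34 alternatives 21 ended the call of Creld2, and at 2 h 14 ended that of Cebpg and 5 that of Syvn1. Ddit4 was the only member called in opposite directions at the 2 times.

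The inhibitor effect differed between 12 h and 2 h for Ddit4 (0.29), Cebpb (-0.34), Asns (-0.38), Phgdh (-0.44), Aldh18a1 (-0.23) and Pdia3 (-0.43), and 27 of 34 alternatives ended the call of Cebpb. The BDNF effect was smaller at 12 h for Atf3 (-0.67), Ddit3 (-0.86), Ppp1r15a (-0.73), Eif2ak3 (-0.75) and Dnajb9 (-0.43). It was larger at 12 h for Cebpg (0.28), Asns (0.45), Psat1 (0.66), Phgdh (0.60), Psph (0.42), Mthfd2 (0.46), Aldh18a1 (0.58), Pdia3 (0.33) and Canx (0.33). The time comparisons and the 2 h interactions use the DMSO arrays at 2 h. Without the first of these, which stood apart, the calls of Cebpg in the 2 h interaction, of Cebpb in the inhibitor's time difference (-0.17) and of Dnajb9 (-0.24) and Canx (0.32) in that of BDNF were lost.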

How the results depend on the processing

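Of 200 called values of single members, the alternatives kept direction and call 6467 times, ended the call 331 times and turned the direction 2 times. Both turns were of Sel1l with the most variable probe set, with IBET858 at 12 h (-0.12, adjusted p = 0.682) and on top of BDNF at 2 h (-0.01136, adjusted p = 0.978). Of 268 values not called with all arrays, alternatives called one in the same direction 318 times and in the opposite direction 16 times. For the single members named next, leaving out the DMSO array that stood apart gave the upper end of each range from leaving out each array in turn. The exception was Trib3 with BDNF at 2 h (-0.19 to 0.37), where it gave the lower end. In the inhibitor's time difference the ranges were -0.17 to 0.29 for Atf3, -0.33 to 0.23 for Trib3 and -0.63 to 0.32 for Sdf2l1, and in BDNF's -0.31 to 0.23 for Chac1, -0.58 to 0.37 for Sdf2l1 and -0.29 to 0.30 for Creld2. Without both arrays that stood apart the opposite calls were Trib3 with BDNF at 2 h (-0.19), Atf3 (0.36), Trib3 (0.28), Dnajc3 (0.28) and Manf (0.34) in the inhibitor's time difference and Chac1 (0.23), Sdf2l1 (0.37) and Creld2 (0.30) in BDNF's, and with array weights Atf3 (0.35) in the inhibitor's. With the groups of each comparison fitted alone, members called higher were 5 with IBET858 at 2 h, 10 with BDNF at 2 h and 14 with IBET858 added to BDNF at 12 h, the interaction was lower for 1 at 2 h and 13 at 12 h, and the time differences were lower for 3 (inhibitor) and 2 (BDNF). With array weights, members called lower were 3 with IBET858 at 2 h and 2 with BDNF at 2 h, the interaction was higher for 4 and lower for 5 at 2 h and lower for 15 at 12 h, and the inhibitor's time difference was higher for 8. Without both arrays that stood apart, members called lower were 3 with IBET858 and 2 with BDNF at 2 h, 14 rose with IBET858 added to BDNF at 12 h, the interaction was higher for 3 at 2 h and lower for 22 at 12 h, and the time differences were higher for 13 (inhibitor) and 18 (BDNF). With probe sets taken singly, 2 members were lower with IBET858 at 2 h, and the inhibitor's time difference was higher for 2, as with the median of probe sets, and for 4 with the most variable probe set.

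Leaving out each array in turn, members called lower ranged from 1 to 3 with IBET858 and from 1 to 2 with BDNF at 2 h. Members called higher ranged from 13 to 21 with IBET858 and from 12 to 22 with BDNF at 2 h. At 12 h they ranged from 17 to 24 and from 22 to 34, lowest without the first DMSO array of 12 h. The interaction was higher for 1 to 3 and lower for 1 to 6 at 2 h, and lower for 7 to 17 at 12 h. The inhibitor's time difference was higher for 1 to 11 and lower for 3 to 10, and BDNF's was higher for 6 to 15 and lower for 3 to 6. With the replicate number as a block, 17 members rose with IBET858 at 2 h, 19 at 12 h, 18 with BDNF at 2 h and 27 at 12 h, and 9 interactions were lower at 12 h. The shared numbers name replicates only. Dim genes cannot be told from centred values, so the genes with the least variance were left out as the filter alternative, which moved no count of members by over 1.5 times. Signal over background is unknown.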
